A study of Mus musculus with 21 samples.

Results

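The comparison described here sets the skin of nintedanib-treated recipients against that of recipients given water, both after an allogeneic bone marrow transplant. Its members are 9 of the 21 libraries of the series, chosen by their labels: 5 nintedanib libraries and 4 water libraries. The recipients were BALB/c mice aged 8 weeks that were irradiated with 700 cGy and transplanted with B10.D2 marrow, a strain combination of the same H-2d type, so that donor and recipient differ in minor antigens. The skin in this model becomes inflamed and sclerodermatous, which is why it is used as a model of chronic graft-versus-host disease and of systemic sclerosis. Treatment of both groups began on day 21, after the first signs of disease, and skin 3 mm in diameter was taken at week 7. The protocol gives nintedanib at 50 mg/kg by mouth each day, whereas the design text names intraperitoneal injection for every allogeneic group, so the route is uncertain. The labels do not state that each library is a separate mouse, so the p-values measure the spread between these libraries, which may be partly technical.

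Nintedanib is a small-molecule inhibitor of receptor tyrosine kinases, mainly the PDGF, FGF and VEGF receptors, and of Src family kinases. It is used against fibrosis because these receptors drive the growth and matrix synthesis of fibroblasts. A kinase inhibitor acts on the enzyme's activity, so the RNA of the receptors need not change. Skin taken as a whole piece holds epidermis, hair follicles with their sebaceous glands, dermis, fat and the thin muscle layer beneath. Sebaceous glands make the wax esters and triglycerides of sebum, and hair follicles pass through cycles of growth and rest.

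Total counts ranged from 17130264 to 18938321 in nintedanib libraries and from 17424792 to 18060310 in water libraries. Libraries 1 and 3 of the nintedanib group stood apart from the other 7, at -121 and -83.6 on the first principal component (43.7% of the variance), where the others lay between 3.36 and 50.3. These 2 libraries hold growing hair follicles. The summed level of the hair shaft keratins and matrix genes was 80300, 89.2, 25800, 93.5 and 129 CPM (counts scaled to the size of the library) in nintedanib libraries 1 to 5, against 97, 110, 513 and 175 CPM in water libraries 1 to 4. Skeletal muscle genes summed to between 6200 and 40300 CPM in nintedanib libraries and between 9130 and 73900 CPM in water libraries, and adipocyte genes reached 25300 CPM in nintedanib library 2 but no more than 5800 CPM elsewhere. The 4 Y-linked genes Ddx3y, Eif2s3y, Kdm5d and Uty together had 220 counts in nintedanib library 2 and 524 in nintedanib library 4 and 0 in the other 7, while the female-specific transcript Xist had at least 2842 counts in each of the 9.

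Nintedanib-treated skin had higher RNA of 6 of 20 sebaceous gland genes, of the serpin Serpinb6e and the esterase-like Aadacl4 and of the follicle stem cell genes Krt15 and Sox9, and lower RNA of the stress keratin Krt16, the growth factor epiregulin and the inflammatory genes Ccl8 and Chil3. Across 16230 genes tested with edgeR's quasi-likelihood test, 94 passed an adjusted p of 0.05, which is 0.579% of all genes. Of these, 62 (0.382%) rose and 32 (0.197%) fell with nintedanib. In all 94 the libraries of the groups did not overlap in CPM, which held for 1582 genes overall (9.75%). Unadjusted p was under 0.05 for 3171 genes, 1886 higher and 1285 lower, and the median log2 fold change of all genes was 0.055.

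The number of calls moved widely with the method and with single libraries. DESeq2 called 1455 genes in the same 9 libraries, 779 higher and 676 lower, among them all 94. Without nintedanib libraries 1 and 3, edgeR called 6 of 16278 genes, all higher (0.0369%), and DESeq2 called 1147, 558 higher and 589 lower. Of the 94 genes, 93 could be tested without that pair. All 93 kept their direction, with a median ratio of the new to the old log2 fold change of 0.979 and an unadjusted p under 0.05. These genes were called with the same libraries and their groups did not overlap. Their kept direction was therefore all but fixed in advance, and the ratio and p are no separate support. The 6 that remained called were Serpinb6e, AAdacl4fm3, Aadacl4, Awat2, Scd3 and Adgra3. For the lower direction edgeR then called 0 genes, with 1603 at an unadjusted p under 0.05. Leaving out single libraries gave 57, 37, 14, 139 and 97 calls for nintedanib libraries 1 to 5 and 16, 4, 13 and 3 calls for water libraries 1 to 4. Without nintedanib libraries 2 and 4, which hold the Y-linked counts, 128 genes were called, 96 higher and 32 lower. With the mean log2 CPM of the tested hair list genes as a covariate, edgeR called 125 genes, 78 of them among the 94. The same mean of the muscle list gave 155 genes, 91 of them among the 94. Libraries with a note of a run on 2 sequencing lanes (nintedanib 2, 3 and 5, water 1 and 2) and those without it gave 0 calls each by edgeR, with 1450 and 860 genes at an unadjusted p under 0.05. All 94 genes kept their direction in the libraries with that note, as did the 93 tested in those without it. This too was all but fixed in advance, because the groups did not overlap.

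**Figure D1:**
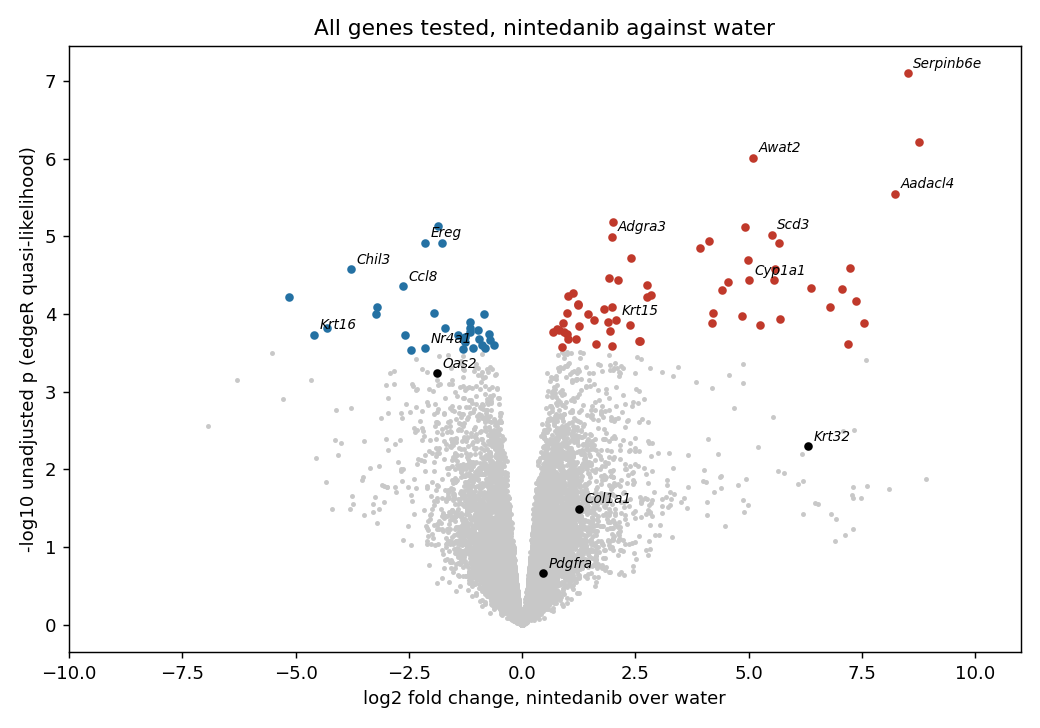
Each point is 1 of the 16230 genes tested, with the log2 fold change of nintedanib over water on the horizontal axis and the -log10 unadjusted p of edgeR's quasi-likelihood test on the vertical axis. Red points are the 62 genes called higher, blue points the 32 called lower, grey points genes not called, and black points named genes that did not pass; Serpinb6e has the lowest p, and Krt32, a hair keratin, lies far to the right without passing.

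The largest increases came from genes that were nearly silent in water-treated skin. Serpinb6e, a serpin of the intracellular clade B of protease inhibitors, had 9.78, 13.2, 9.20, 13.2 and 20.7 CPM in nintedanib libraries 1 to 5, against 0.0629, 0, 0 and 0.0587 CPM in water libraries 1 to 4. Only 2 reads of this gene were counted in the water group as a whole, a ratio of 447 with an exact counting interval of 124 to 3700 that covers counting error only. Its fitted log2 fold change was 8.51 ± 0.60 (SE, adjusted p = 0.00129), and 8.72 ± 0.55 without nintedanib libraries 1 and 3 (adjusted p = 0.00444). Every nintedanib library, with or without growing hair, was far above every water library. It kept its call whichever single library was left out (adjusted p from 0.00192 to 0.0125).

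Of the arylacetamide deacetylase-like family, which encodes predicted lipid and ester hydrolases, 3 members rose. Aadacl4 had 10.3, 13.2, 10.3, 12.3 and 31.1 CPM in nintedanib libraries, against 0.189, 0, 0 and 0 CPM in water libraries (8.24 ± 0.86, adjusted p = 0.0114). The 3 reads of the water group give a ratio of 347 with a counting interval of 118 to 1680. Its neighbour in the family AAdacl4fm3 had 14.9, 7.25, 5.24, 5.83 and 14 CPM with nintedanib and 0.0629, 0, 0 and 0 CPM with water, where a single read was counted (ratio 632, interval 113 to 25000; adjusted p = 0.00499). Aadacl2fm2 averaged 10.8 ± 8.26 CPM with nintedanib and 0.0786 ± 0.157 CPM with water (SD, n = 5 and 4; adjusted p = 0.0272). The other members tested, Aadacl2fm1 (1.76 ± 0.35, adjusted p = 0.0557), Aadacl4fm5 (4.57 ± 0.92, adjusted p = 0.0567) and Aadacl2 (-0.42 ± 0.41, adjusted p = 0.591), did not pass. These genes are alike in sequence, so reads could be split between them. Without 1 library in turn, AAdacl4fm3 stayed called (adjusted p up to 0.0390), Aadacl4 lost its call without water library 2 or 4 (up to 0.0710), and Aadacl2fm2 without nintedanib library 3 or any water library (up to 0.117).

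The same range held other enzymes and membrane proteins. Hsd3b6, a steroid dehydrogenase, averaged 6.08 ± 5.16 CPM with nintedanib and 0.0315 ± 0.0629 CPM with water (log2 fold change 7.38 ± 1.12). The cytochrome P450 genes Cyp2j12 (7.23 ± 0.97) and Cyp2g1 (7.19 ± 1.28), the channel gene Panx3 (6.80 ± 1.05), the carboxylesterase Ces4a (6.37 ± 0.92) and the serpin Serpina3b (5.70 ± 0.92) also rose, with adjusted p between 0.0226 and 0.0462. Cyp2j12 rests on a single read in the water group. Cyp2g1 ranged from 5.44 to 127 CPM among nintedanib libraries and from 0 to 0.692 CPM among water libraries, so the groups were separate although the treated libraries spread widely. Each of these 6 genes lost its call when any of several single libraries was left out (adjusted p up to 0.164 for Cyp2g1), with log2 fold changes of 4.95 or more throughout.

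The sequence before the transcription start is shown for 5 of the genes that rose: Serpinb6e and Aadacl4, which had almost no reads in water-treated skin, the sebaceous lipid genes Far2 and Scd3, and the drug-response gene Cyp1a1, so that genes that moved together can be compared. Each is the 250 bases upstream of the RefSeq start on GRCm38.p6, an older build than the one the reads were counted on, read 5′ to 3′ on the gene's strand. The windows are chr13:33843409-33843658 on the minus strand for Serpinb6e, and on the plus strand chr4:144613457-144613706 for Aadacl4, chr6:148047166-148047415 for Far2, chr19:44203038-44203287 for Scd3 and chr9:57697363-57697612 for Cyp1a1. Capitals mark matches, on either strand, to the nuclear receptor core AGGTCA, the aryl hydrocarbon receptor core GCGTG, the NF-Y box CCAAT or the TATA box TATAAA.
Serpinb6e: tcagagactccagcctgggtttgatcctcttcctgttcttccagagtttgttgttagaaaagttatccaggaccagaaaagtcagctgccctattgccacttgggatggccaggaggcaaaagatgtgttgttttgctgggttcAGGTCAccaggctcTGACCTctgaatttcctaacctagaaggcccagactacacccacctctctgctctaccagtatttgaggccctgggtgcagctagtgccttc
Aadacl4: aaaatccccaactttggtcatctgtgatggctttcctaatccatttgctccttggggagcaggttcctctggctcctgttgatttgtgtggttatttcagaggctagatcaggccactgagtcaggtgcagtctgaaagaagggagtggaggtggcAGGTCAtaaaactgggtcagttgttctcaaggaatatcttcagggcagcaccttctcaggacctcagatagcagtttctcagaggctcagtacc
Far2: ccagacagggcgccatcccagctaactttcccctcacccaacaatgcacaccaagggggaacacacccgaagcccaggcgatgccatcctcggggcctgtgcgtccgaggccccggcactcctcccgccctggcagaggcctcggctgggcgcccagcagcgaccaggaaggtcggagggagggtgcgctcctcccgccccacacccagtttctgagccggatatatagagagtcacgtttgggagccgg
Scd3: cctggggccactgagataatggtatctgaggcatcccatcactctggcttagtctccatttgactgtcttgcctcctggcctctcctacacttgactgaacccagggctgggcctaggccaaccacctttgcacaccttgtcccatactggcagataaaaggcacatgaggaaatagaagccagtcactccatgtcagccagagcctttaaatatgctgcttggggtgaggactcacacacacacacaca
Cyp1a1: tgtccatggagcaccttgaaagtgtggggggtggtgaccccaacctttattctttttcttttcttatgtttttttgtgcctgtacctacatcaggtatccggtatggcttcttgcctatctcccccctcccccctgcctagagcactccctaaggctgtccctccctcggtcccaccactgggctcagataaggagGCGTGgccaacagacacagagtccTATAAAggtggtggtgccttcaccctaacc

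Serpinb6e held AGGTCA on both strands, 106 and 92 bases before the start, and Aadacl4 held it once, 94 bases before the start. Cyp1a1 held GCGTG 54 bases and TATAAA 30 bases before its start. Far2 and Scd3 held none of the 4 motifs in this window. Among 32851 windows of the same length in the RefSeq promoter table, 14.02% held AGGTCA, 28.2% GCGTG, 33.8% CCAAT and 12.4% TATAAA. Of the 62 genes that rose, 40 had 1 such window, and 6 of them (15.0%) held AGGTCA, 13 (32.5%) GCGTG, 14 (35.0%) CCAAT and 4 (10.0%) TATAAA. Of the 32 that fell, 21 had 1 such window, and 2 of them (9.52%) held AGGTCA, 11 (52.4%) GCGTG, 12 (57.1%) CCAAT and 1 (4.76%) TATAAA. The 32851 windows also include genes with several windows and genes not tested here, so their shares are not a matched background. These shares are descriptions of letters in the windows, without a test.

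**Figure D2:**
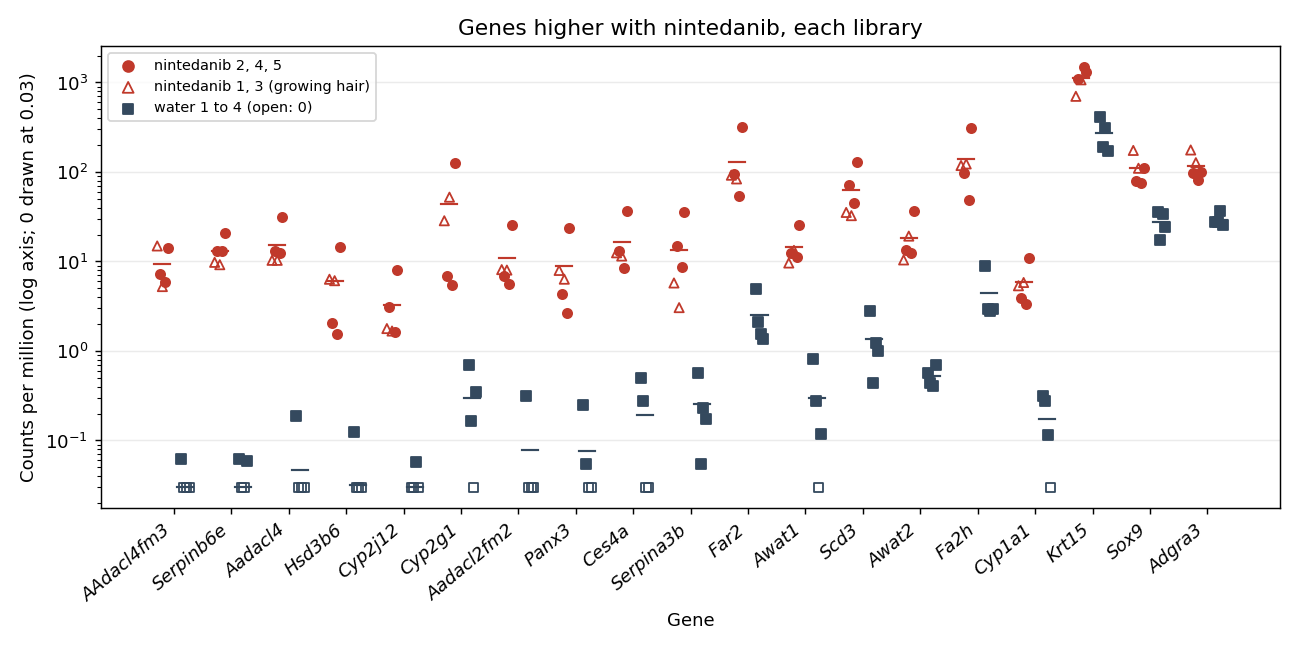
CPM of leading genes higher with nintedanib in each library on a log axis, with nintedanib in red (open triangles are libraries 1 and 3, with growing hair) left of water in dark squares, horizontal bars for group means, and values of 0 drawn as open squares at 0.03. All nintedanib libraries lie above all water libraries for every gene drawn, which was a condition for choosing the 12 largest increases. Nintedanib library 5 is the highest for most of the sebaceous and lipid genes.

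Sebaceous gland genes were the list with the most calls by edgeR, whereas DESeq2 called more hair shaft genes (13) than sebaceous genes (11). Of its 20 members, all tested, 6 rose, 0 fell and 14 did not pass. The median log2 fold change of the list was 2.10, against 0.055 over all genes, and 1.92 without nintedanib libraries 1 and 3. DESeq2 called 11 of the 20 higher. Awat2, an acyltransferase that makes wax esters, had 10.4, 13.6, 19.2, 12.5 and 36.2 CPM in nintedanib libraries, against 0.566, 0.437, 0.405 and 0.704 CPM in water libraries (5.10 ± 0.47, adjusted p = 0.00524). The water libraries lay close together, and the lowest nintedanib library was well above them. Its call held without any single library (adjusted p up to 0.0446) and without nintedanib libraries 1 and 3 (adjusted p = 0.0246). Its relative Awat1 averaged 14.4 ± 6.46 CPM with nintedanib and 0.302 ± 0.362 CPM with water.

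Enzymes that feed wax and fatty acid synthesis showed the same separation. Far2, which reduces fatty acids to the alcohols of waxes, had 92.0, 93.7, 83.6, 53.8 and 316 CPM with nintedanib and 4.97, 2.13, 1.56 and 1.35 CPM with water (5.68 ± 0.70, adjusted p = 0.0151). Exons of Far2 overlap those of Ergic2 and an antisense gene in the reference annotation, and the library kit did not mark strand. Scd3, a stearoyl-CoA desaturase of sebaceous glands, had 35.3, 70.6, 32.5, 45.0 and 128 CPM with nintedanib and 2.83, 0.437, 1.22 and 0.997 CPM with water (5.51 ± 0.66, adjusted p = 0.0151). Scd3 is close in sequence to Scd1, so some of its reads are uncertain. Fa2h, the fatty acid 2-hydroxylase, averaged 140 ± 99.6 CPM with nintedanib and 4.40 ± 3.02 CPM with water, and Cidea, which enlarges lipid droplets, 17.2 ± 6.09 and 1.12 ± 0.732 CPM. Far2 and Scd3 lost their calls without water library 2, 3 or 4 (adjusted p up to 0.0966 for both) and Cidea without nintedanib library 3 or those water libraries (up to 0.101). Scd3 stayed called without nintedanib libraries 1 and 3 (5.86, adjusted p = 0.0397), whereas Far2 did not (5.91, adjusted p = 0.0643).

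Members that did not pass included Elovl3 (4.67 ± 1.08, adjusted p = 0.0814), Dgat2l6 (4.18 ± 0.89, adjusted p = 0.0646) and the melanocortin receptor Mc5r (2.62 ± 0.50, adjusted p = 0.0550), each without overlap between the groups. Scd1, which fat cells also express, was at 1.77 ± 1.19 (adjusted p = 0.430). The summed level of the list overlapped between groups, at 3620, 23100, 4620, 2260 and 7180 CPM with nintedanib and 3630, 1280, 4620 and 2270 CPM with water. Scd1 alone had 1190, 19300, 1330, 433 and 2640 CPM with nintedanib and 1950, 139, 3010 and 737 CPM with water. In whole skin, more sebaceous cells and more RNA per sebaceous cell cannot be told apart.

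Outside the list, and named here after their values were seen, several called genes also act on lipids. The lipase Pnpla5 rose by 4.91 ± 0.57, the peroxisomal oxidase Acox2 by 4.54 ± 0.64, the fatty acid elongase Elovl6 by 2.75 ± 0.41, its relative Elovl5 by 1.12 ± 0.16, the ceramide synthase Cers4 by 2.75 ± 0.39 and the sphingomyelin synthase Sgms2 by 0.91 ± 0.15. The lipid droplet genes Ldah (1.23 ± 0.19) and Ldaf1 (1.24 ± 0.19) and the steroid reductase Akr1c14 (2.85 ± 0.42) rose as well. Adjusted p lay between 0.0151 and 0.0383 for these 9 genes. Exons of Elovl6 overlap those of the antisense gene Gm35986, which was itself called higher (7.55 ± 0.97, adjusted p = 0.0383). The kit did not mark strand, so reads of the overlap cannot be told apart. Of 24 cholesterol and fatty acid synthesis genes tested, by contrast, edgeR called 0, with 10 higher at an unadjusted p under 0.05 and 5 higher by DESeq2. Their median was 0.61, and 0.32 without nintedanib libraries 1 and 3, and Msmo1, a sterol oxidase, had the lowest p (0.97 ± 0.22, adjusted p = 0.0766). Of 16 adipocyte genes edgeR and DESeq2 called 0, with 0 at an unadjusted p under 0.05.

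Hair follicle stem and resting follicle genes held further calls, all of them higher. Of 13 members tested 2 rose, 0 fell and 11 did not pass, all 13 had a positive log2 fold change, and DESeq2 called 7 higher. Krt15, a keratin of bulge stem cells and basal epidermis, had 700, 1090, 1070, 1490 and 1300 CPM in nintedanib libraries, against 411, 188, 306 and 172 CPM in water libraries (2.07 ± 0.34, adjusted p = 0.0382). Here the lowest nintedanib library was one with growing hair. Sox9, a transcription factor of follicle stem cells, had 174, 80.0, 110, 76.0 and 112 CPM with nintedanib and 35.9, 17.2, 34.1 and 24.1 CPM with water (1.99 ± 0.31, adjusted p = 0.0332). Without nintedanib libraries 1 and 3 the values were 2.22 for Krt15 (adjusted p = 0.0831) and 1.64 for Sox9 (adjusted p = 0.0841), and the median of the list was 0.84, against 1.11 with all 5. Krt15 also lost its call without nintedanib library 2, 3 or 5 or any water library and Sox9 without nintedanib library 3 or any water library (adjusted p up to 0.127 for both). The summed level of the list was 3440, 2340, 3870, 2780 and 3460 CPM with nintedanib and 1210, 589, 1170 and 812 CPM with water, so that no water library reached the lowest nintedanib library. Krt15 and Krt79, which is also in the sebaceous list, were large parts of this sum. Krt79 had 634, 590, 1510, 631 and 1210 CPM with nintedanib and 358, 55.3, 386 and 165 CPM with water. Taken singly, 6 of the 13 members had groups that did not overlap. Adgra3, an adhesion G protein-coupled receptor, had 176, 98.0, 127, 81.7 and 101 CPM with nintedanib and 27.9, 27.6, 36.9 and 25.3 CPM with water (1.99 ± 0.24, adjusted p = 0.0151). It was one of the 6 genes still called without nintedanib libraries 1 and 3 (1.63, adjusted p = 0.0336), and it lost its call without water library 1, 2 or 4 (adjusted p up to 0.0966).

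The hair shaft genes themselves behaved differently. Of 21 tested, from 38 members, edgeR called 0, although 15 were higher at an unadjusted p under 0.05 and DESeq2 called 13. Their median was 6.21 with all libraries and -0.81 without nintedanib libraries 1 and 3, so the sign of the median rested on those 2 libraries, and 4 of the 18 genes tested without the pair had a positive value. Among water libraries, library 3 had the highest summed level of the list, at 513 CPM against 97, 110 and 175 CPM. Its part in the value of -0.81 was not tested. Krt32 had 197 and 86.2 CPM in nintedanib libraries 1 and 3 and 1.43, 2.36 and 3.15 CPM in the other nintedanib libraries, against 0.293 to 1.62 CPM in water libraries. Its log2 fold change was 6.31 ± 1.75 (adjusted p = 0.115) with all libraries and, unlike the median, stayed positive without the pair (1.62, adjusted p = 0.217). Cell cycle genes followed the same pattern, with a median of 0.60 and of -0.40 without the pair and 0 of 26 called by edgeR or DESeq2 (unadjusted, 1 higher). Melanocyte genes had a median of 1.22 with all libraries and 0.13 without the pair, with 0 of 9 called by either tool and 2 higher at an unadjusted p under 0.05.

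**Figure D3:**
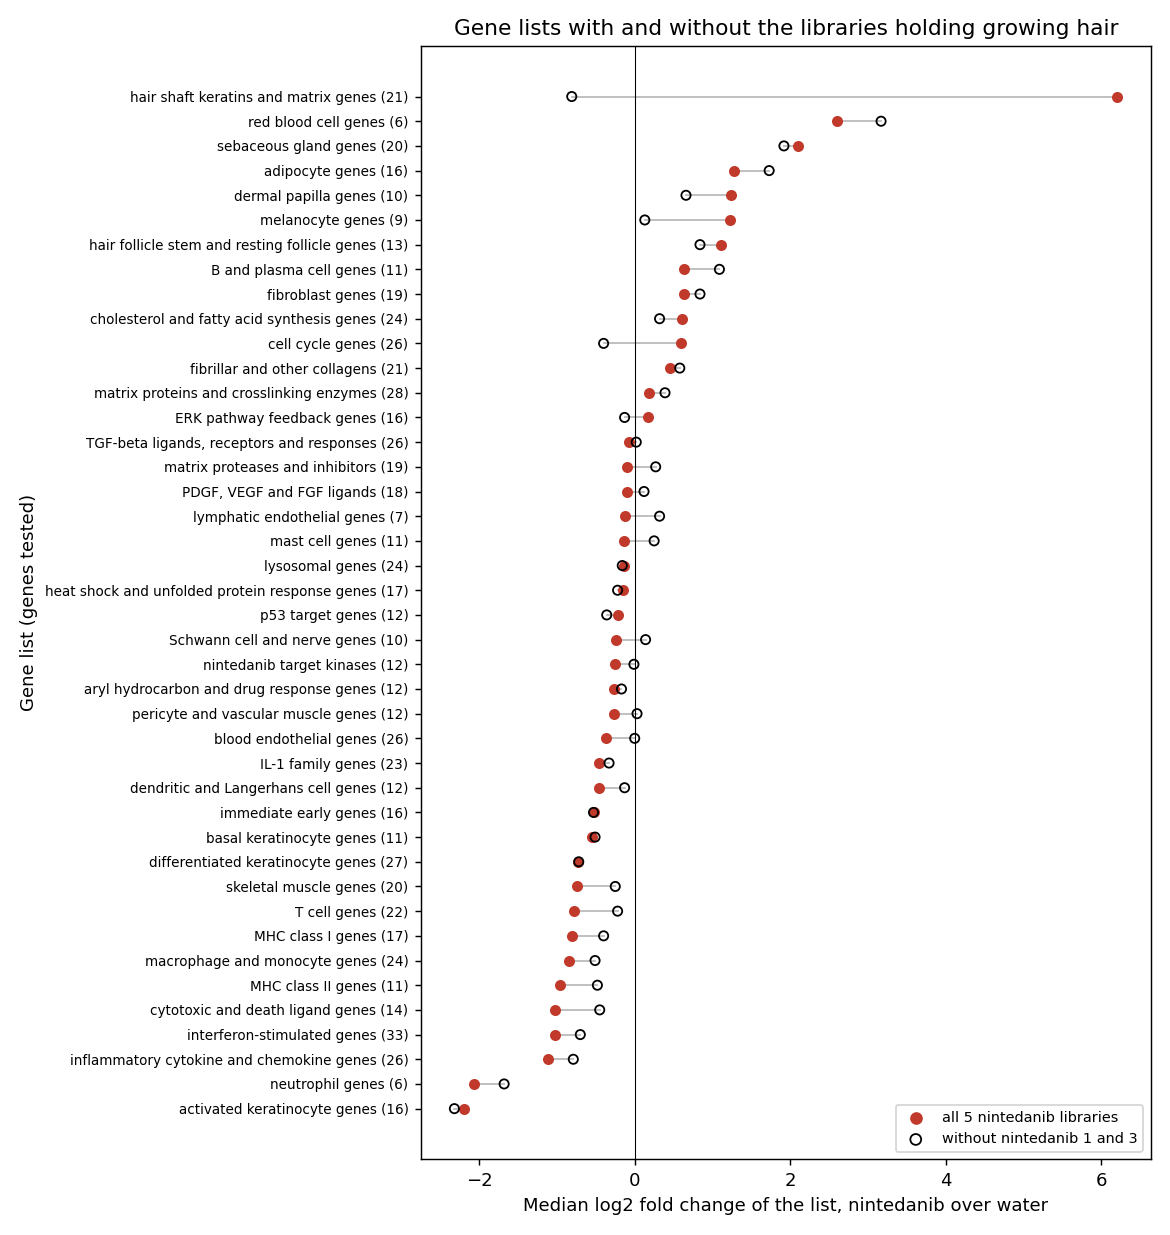
Median log2 fold change of nintedanib over water for each gene list with at least 6 genes tested (number tested in brackets), with all 5 nintedanib libraries in red and without libraries 1 and 3 as open circles. The hair shaft list moves across 0 when the pair is left out (6.21 and -0.81), while the sebaceous (2.10 and 1.92) and activated keratinocyte lists (-2.19 and -2.32) keep their side of 0.

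Cyp1a1, the cytochrome P450 that the aryl hydrocarbon receptor induces, had 5.35, 3.90, 5.82, 3.35 and 11 CPM with nintedanib and 0.315, 0.273, 0.116 and 0 CPM with water (5.01 ± 0.70, adjusted p = 0.0257). Every nintedanib library was above every water library. It was the single called gene among 12 of the aryl hydrocarbon and drug response list, whose median was -0.26. Other targets of this receptor did not pass, with Cyp1b1 at 0.99 ± 0.39, its repressor Ahrr at -0.58 ± 0.50 and Tiparp at -0.47 ± 0.23 (adjusted p of at least 0.212). Without nintedanib libraries 1 and 3 the value for Cyp1a1 was 5.02 (adjusted p = 0.0831), and its call was lost without nintedanib library 3 or any water library (adjusted p up to 0.0950).

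In the epidermis, calls among genes of activated keratinocytes, which are switched on in wounded and inflamed skin, were all lower. Of 16 tested, 2 fell, 0 rose and 14 did not pass, with a median of -2.19 and 9 called lower by DESeq2. Leaving out nintedanib libraries 1 and 3 gave a median of -2.32, with 0 called by edgeR and 8 lower by DESeq2. Krt16, a keratin of stressed epidermis, had 80.6, 38.4, 32.6, 58.4 and 215 CPM in nintedanib libraries, against 3440, 570, 751 and 3440 CPM in water libraries. The water libraries thus fell into a higher and a lower pair, and every nintedanib library was below both. The log2 fold change was -4.59 ± 0.79 (adjusted p = 0.0412), and it was -4.35 without nintedanib libraries 1 and 3 (adjusted p = 0.111). Ereg, which encodes the EGF receptor ligand epiregulin, had 27.9, 21.5, 13.4, 20.6 and 37.3 CPM with nintedanib and 109, 103, 89.2 and 129 CPM with water (-2.15 ± 0.27, adjusted p = 0.0151; -2.06 without the pair, adjusted p = 0.0639). The call for Krt16 held without nintedanib library 5 only (adjusted p up to 0.131 without the other libraries), and that for Ereg was lost without water library 1, 2 or 4 (up to 0.0966).

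Most other members of the list were lower without passing the test, while 4 of the 16 had a positive log2 fold change. Krt6a, the partner class of Krt16, averaged 277 ± 140 CPM with nintedanib and 1290 ± 852 CPM with water (-2.22 ± 0.52, adjusted p = 0.0833), and it shares much sequence with Krt6b (-5.28 ± 1.18, adjusted p = 0.0730). Sprr1b, a cornified envelope precursor, was at -4.11 ± 0.96 and Serpinb3a at -4.65 ± 0.96. In the other direction Krt17 was at 0.77 ± 0.45 and Sprr1a at 1.01 ± 0.95, neither of them called. Lce1k, a late cornified envelope gene outside the list and one of a family of similar genes, fell to 10.8 ± 5.98 CPM with nintedanib, against 64.5 ± 20.1 CPM with water (-2.58 ± 0.44, adjusted p = 0.0413). Of 27 differentiated keratinocyte genes edgeR called 0, with 11 lower at an unadjusted p under 0.05 and 7 lower by DESeq2 (median -0.73). Of 11 basal keratinocyte genes it also called 0, with 4 lower unadjusted and 4 lower by DESeq2 (median -0.55). When nintedanib libraries 1 and 3 were left out, edgeR called 0 in both lists. DESeq2 then called 1 higher and 5 lower differentiated genes (median -0.72) and 1 lower basal gene (median -0.51).

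Among inflammatory cytokine and chemokine genes, 1 of 26 tested fell, 0 rose and 25 did not pass (median -1.11, 6 lower by DESeq2). Leaving out nintedanib libraries 1 and 3 gave a median of -0.79, with 0 called by edgeR and 4 lower by DESeq2. Unadjusted p was under 0.05 for 12 genes with all libraries and for 6 without the pair. Ccl8, a chemokine that attracts monocytes and T cells, had 74.2, 66.6, 93.1, 194 and 208 CPM in nintedanib libraries, against 645, 827, 795 and 858 CPM in water libraries (-2.62 ± 0.38, adjusted p = 0.0271). The water libraries were close to each other and the highest nintedanib library was less than all of them. Chil3, a chitinase-like protein of macrophages, was the single called gene of 24 in the macrophage and monocyte list (median -0.85, and -0.51 without nintedanib libraries 1 and 3), with 0.748, 0.934, 1.57, 2.47 and 0.758 CPM with nintedanib and 23, 27.7, 6.65 and 14.3 CPM with water (-3.78 ± 0.51, adjusted p = 0.0226). Reads of Chil3 may be shared with the similar Chil4. Without nintedanib libraries 1 and 3 the values were -2.36 for Ccl8 (adjusted p = 0.0841) and -3.73 for Chil3 (adjusted p = 0.0841). Ccl8 lost its call without nintedanib library 3 or any water library (adjusted p up to 0.117), and Chil3 without nintedanib library 2 or 3 or water library 1, 2 or 4 (up to 0.0966). The cytokine Il24 (-5.52 ± 1.02, adjusted p = 0.0518) and the signalling inhibitor Socs3 (-1.82 ± 0.38, adjusted p = 0.0631) did not pass. Il6 was too low to be tested, at 1, 7, 2, 6 and 8 counts with nintedanib and 7, 4, 29 and 16 counts with water.

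Of 16 immediate early genes, which respond within minutes to growth factors and stress, 1 fell, 0 rose and 15 did not pass (median -0.52, 7 lower by DESeq2). Leaving out nintedanib libraries 1 and 3 gave a median of -0.53, with 0 called by edgeR and 5 lower by DESeq2. Nr4a1, an orphan nuclear receptor, had 21.7, 28.9, 29.9, 36.9 and 32.2 CPM with nintedanib and 264, 74.1, 123 and 66.5 CPM with water (-2.14 ± 0.39, adjusted p = 0.0485). Its call was lost without any 1 of the 9 libraries (adjusted p from 0.0541 to 0.124). Fos (-2.10 ± 0.42, adjusted p = 0.0557) and Fosb (-2.91 ± 0.58, adjusted p = 0.0558) did not pass, and Egr1 was at 0.68 ± 0.39. The MAP kinase phosphatase Dusp7, outside the lists and named after its value was seen, fell by 1.16 on the log2 scale (SE 0.19, adjusted p = 0.0383).

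The remaining genes with the largest decreases came from several families. Gdf6, a bone morphogenetic protein family ligand, averaged 0.591 ± 0.321 CPM with nintedanib and 3.27 ± 0.761 CPM with water. The homeobox gene Gbx1 was at 0.165 ± 0.0924 and 1.60 ± 0.772 CPM, and the glutathione transferase Gstm6, which has close paralogs, at 3.74 ± 0.652 and 14.5 ± 6.07 CPM. Rfx2, a transcription factor known for ciliary genes, fell to 18.4 ± 3.64 CPM with nintedanib, against 66.8 ± 18.0 CPM with water (-1.86 ± 0.22, adjusted p = 0.0151). Urah, which degrades a product of uric acid oxidation and overlaps an antisense gene, fell to 58.5 ± 12.1 CPM, against 198 ± 53.3 CPM with water (-1.76 ± 0.22, adjusted p = 0.0151). Avpi1 was at -1.70 ± 0.28 (adjusted p = 0.0397). The call of Avpi1 was lost without any 1 of the 9 libraries (adjusted p from 0.0530 to 0.120). Rfx2 kept its call in 7 of the 9 fits that left out 1 library, Urah in 6, Gbx1 and Gstm6 in 2 each and Gdf6 in 1 (adjusted p up to 0.14).

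**Figure D4:**
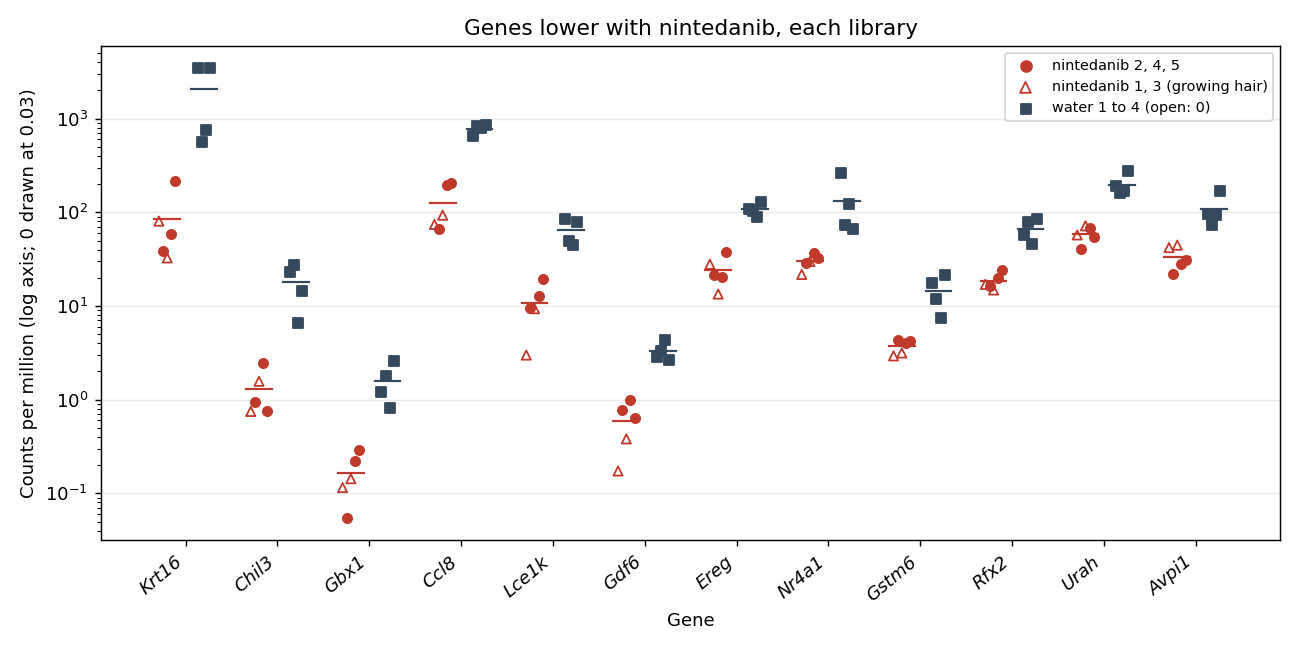
CPM of the 12 genes with the largest called decreases in each library on a log axis, with nintedanib in red (open triangles are libraries 1 and 3, with growing hair) left of water in dark squares and horizontal bars for group means. No nintedanib library reaches the lowest water library for any of the 12, which was a condition for choosing them. Krt16 has the widest spread among water libraries (570 to 3440 CPM).

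Interferon-stimulated genes, which interferons from immune cells switch on, gave 0 calls by edgeR among 33 tested. By edgeR 11 were lower at an unadjusted p under 0.05, and DESeq2 called 3 lower. All 33 log2 fold changes were negative, with a median of -1.03, and of -0.70 without nintedanib libraries 1 and 3. Without that pair edgeR called 0, with 14 at an unadjusted p under 0.05, and DESeq2 called 6 lower. Oas2, an antiviral RNA sensor, had the lowest p, with 11.8, 44.0, 39.6, 54.4 and 52.3 CPM with nintedanib and 110, 173, 170 and 136 CPM with water (-1.87 ± 0.37, adjusted p = 0.0557). The groups did not overlap for Oas2. Without nintedanib libraries 1 and 3 it was at -1.59 (adjusted p = 0.0521 by edgeR). The summed level of the list did overlap, at 588, 2030, 1670, 5000 and 3380 CPM with nintedanib and 4640, 7530, 5280 and 4570 CPM with water, and nintedanib library 1, with the most hair RNA, was the lowest. MHC class I genes (0 of 17 called, median -0.81, 4 lower unadjusted) and MHC class II genes (0 of 11, median -0.96, 2 lower unadjusted) were not called by edgeR or DESeq2, and without nintedanib libraries 1 and 3 their medians were -0.40 and -0.48. T cell genes (0 of 22, median -0.78, 2 lower unadjusted) and cytotoxic genes (0 of 14, median -1.02, 1 lower unadjusted) were not called by either tool, and their medians without the pair were -0.22 and -0.45. At an unadjusted p under 0.05 there were then 3 MHC class I, 0 MHC class II, 0 T cell and 1 cytotoxic genes.

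Of 23 IL-1 family genes tested, edgeR called 0, with 2 higher and 8 lower at an unadjusted p under 0.05, and DESeq2 called 1 higher and 6 lower (median -0.46). Leaving out nintedanib libraries 1 and 3 gave a median of -0.33, with 0 called by edgeR and 1 higher and 3 lower by DESeq2. Il36a, an epidermal cytokine, averaged 3.29 ± 2.28 CPM with nintedanib and 16.3 ± 7.03 CPM with water (-2.31 ± 0.49, adjusted p = 0.0646). The shared adaptor Myd88 was at -0.90 ± 0.18 (adjusted p = 0.0568), and the co-receptor Il1rap at -0.19 ± 0.19 (adjusted p = 0.598).

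**Figure D5:**
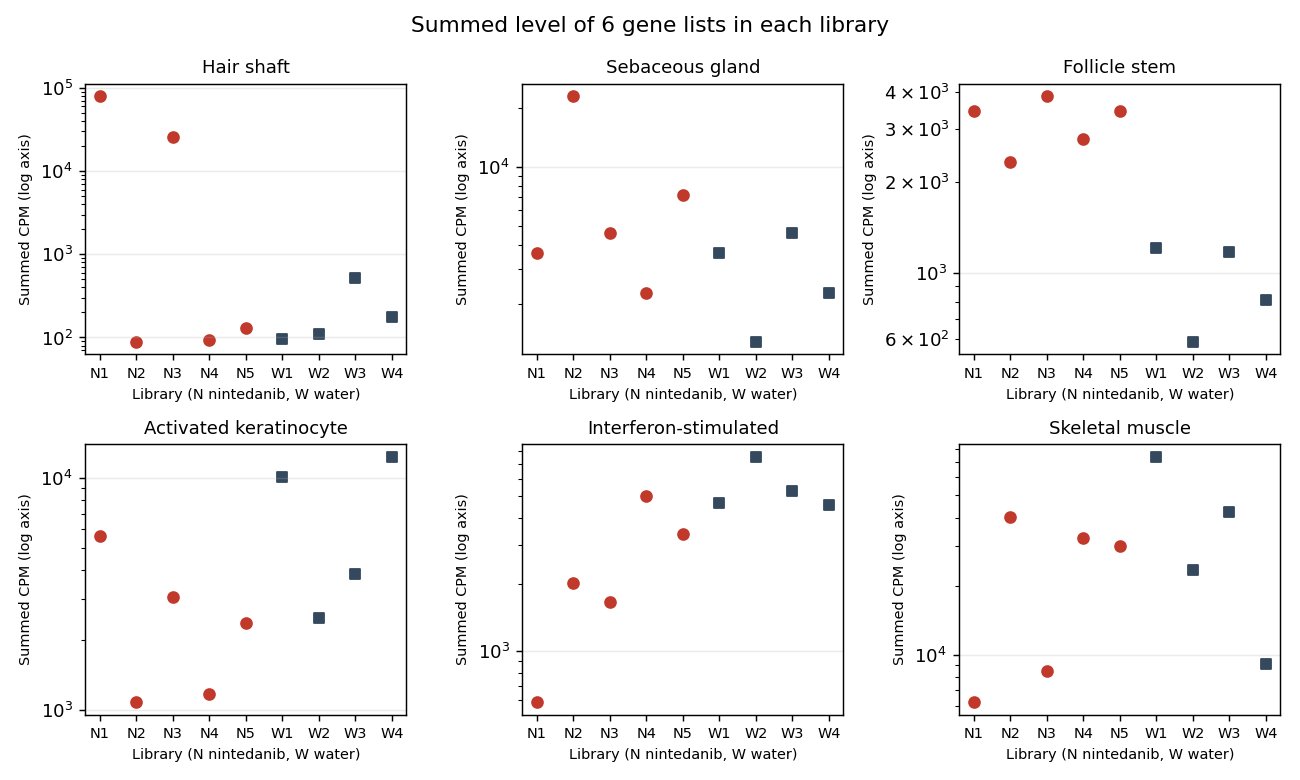
Summed CPM of 6 gene lists in each library on log axes, with nintedanib libraries 1 to 5 (N, red circles) left of water libraries 1 to 4 (W, dark squares). Hair shaft genes are high in nintedanib libraries 1 and 3 only, follicle stem genes are higher in all 5 nintedanib libraries, and the other 4 lists overlap between the groups.

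The RNA of the kinases that nintedanib inhibits showed no called difference with all 9 libraries. Of the 12 target kinases edgeR and DESeq2 called 0, and 1, Fgfr2, was higher at an unadjusted p under 0.05 (0.60 ± 0.21, adjusted p = 0.177). Without nintedanib libraries 1 and 3 DESeq2 called 1 of the 12 lower and edgeR 0. By edgeR Fgfr3 was then at -0.62 (unadjusted p = 0.00430, adjusted p = 0.119) and Fgfr2 at 0.43 (unadjusted p = 0.0882). Pdgfra had 31.0, 49.7, 30.3, 22.9 and 37.0 CPM with nintedanib and 23.7, 18.8, 43.7 and 12.8 CPM with water (0.46 ± 0.35, adjusted p = 0.482), and the groups overlapped. Log2 fold changes were 0.09 ± 0.35 for Pdgfrb, -0.11 ± 0.21 for Fgfr1, -0.30 ± 0.21 for Fgfr3, 0.18 ± 0.48 for the VEGF receptor Kdr, -0.38 ± 0.39 for Flt1 and -0.19 ± 0.51 for Flt4. Those of the Src family kinases were -0.31 ± 0.23 for Src, -0.51 ± 0.43 for Lyn and -0.64 ± 0.45 for Lck. The summed level of the list was between 524 and 655 CPM with nintedanib and between 572 and 681 CPM with water.

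No ERK feedback, receptor ligand or blood endothelial gene was called by edgeR. The lower calls of the immediate early gene Nr4a1 and of Dusp7 are given above. Of 16 genes that ERK signalling induces as feedback, edgeR called 0, with 1 higher and 1 lower at an unadjusted p under 0.05, and DESeq2 called 1 higher and 1 lower. When nintedanib libraries 1 and 3 were left out, edgeR called 0 of the 16 and DESeq2 called 1 higher and 2 lower. The phosphatase Dusp6 was at -0.09 ± 0.37 with all libraries and at -0.85 without nintedanib libraries 1 and 3 (adjusted p = 0.113), in which it had 101 and 90.8 CPM, while the other nintedanib libraries had 34.4 to 38.2 CPM and water libraries 52.3 to 89.3 CPM. Spry4 was at 0.51 ± 0.36 and Spry1 at 0.36 ± 0.11 (adjusted p = 0.136). Of 18 PDGF, VEGF and FGF ligand genes edgeR called 0, with 3 higher and 1 lower unadjusted and 1 higher by DESeq2. Blood endothelial genes had 0 of 26 called by edgeR, 7 lower unadjusted and 2 lower by DESeq2, and their median of -0.37 was 0 without nintedanib libraries 1 and 3.

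No collagen gene passed the test in either direction. Of 21 collagen genes edgeR called 0, with 4 higher and 1 lower at an unadjusted p under 0.05 and 2 higher by DESeq2, and the median was 0.45. Leaving out nintedanib libraries 1 and 3 gave a median of 0.58, with 0 called by edgeR or DESeq2 and 3 at an unadjusted p under 0.05. Col1a1, the main chain of fibrillar collagen, had 1110, 670, 2570, 1610 and 3710 CPM with nintedanib and 570, 526, 1070 and 1080 CPM with water (1.25 ± 0.50, adjusted p = 0.217). Col1a2 was at 1.19 ± 0.41 (adjusted p = 0.171) and Col3a1 at 0.77 ± 0.40 (adjusted p = 0.316). The groups overlapped for Col1a1, with 1 nintedanib library inside the range of the water libraries. Fibronectin, Fn1, averaged 574 ± 713 CPM with nintedanib, where library 4 had 1850 CPM, and 485 ± 273 CPM with water. Acta2, the actin of myofibroblasts and smooth muscle, was at 0.14 ± 0.23, Tgfb1 at -0.64 ± 0.34 and its target Ccn2 at -0.29 ± 0.44. Of 19 fibroblast genes edgeR called 0, with 7 higher and 1 lower unadjusted and 3 higher by DESeq2, and Dcn, the matrix proteoglycan decorin, had the lowest p (1.15 ± 0.28, adjusted p = 0.0890).

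To see how the called genes differ in diseased skin, their values were taken from 8 other libraries, allogeneic and syngeneic recipients both given the isotype antibody mIgG2a LALA-PG (4 each). Marrow donors were B10.D2 in the allogeneic and BALB/c in the syngeneic group, so donor strain and disease cannot be told apart, and Y-linked counts were present in 0 of 4 allogeneic isotype and 4 of 4 syngeneic libraries. In that comparison 2674 of 18711 genes were higher (14.3%) and 2078 lower (11.1%) in allogeneic isotype skin. Of the 62 genes that rose with nintedanib, 58 were tested there, and 39 were lower, 0 higher and 19 not called in allogeneic isotype skin (median log2 fold change -2.11). Of the 32 that fell with nintedanib, 31 were tested, and 24 were higher, 0 lower and 7 not called (median 0.97). No sample is shared between these comparisons, and no test of the overlap was made.

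Levels of single genes show the sizes involved, as means within each set of libraries. Serpinb6e was at 0.334 ± 0.583 CPM in allogeneic isotype and 16.3 ± 13.0 CPM in syngeneic skin, beside 13.2 ± 4.58 CPM with nintedanib and 0.0304 ± 0.0351 CPM with water. Scd3 was at 2.31 ± 1.55 CPM in allogeneic isotype and 124 ± 68.7 CPM in syngeneic skin, beside 62.3 ± 39.8 CPM with nintedanib and 1.37 ± 1.03 CPM with water. Krt16 was at 2220 ± 1020 CPM in allogeneic isotype and 19.4 ± 3.76 CPM in syngeneic skin, beside 85.0 ± 75.1 CPM with nintedanib and 2050 ± 1610 CPM with water. Ccl8 was at 892 ± 167 CPM in allogeneic isotype and 41.6 ± 12.1 CPM in syngeneic skin, beside 127 ± 68.4 CPM with nintedanib and 781 ± 94.5 CPM with water. Chil3 had 69.9 ± 8.49 CPM in allogeneic isotype skin and no read in syngeneic skin, beside 1.30 ± 0.739 CPM with nintedanib and 17.9 ± 9.34 CPM with water. Gene names differ between the 9 nintedanib and water libraries and the other libraries, so these levels are given side by side without a test. Not every called gene differed there: Rfx2 (0.23 ± 0.53), Nr4a1 (0.45 ± 0.41) and Gdf6 (0.57 ± 0.64) did not pass in allogeneic against syngeneic skin. Genes that rose with nintedanib and did not pass there included Aadacl4 (-3.65 ± 1.19), Awat1 (-3.04 ± 1.25), Ces4a (-2.67 ± 1.31), Cidea (-1.64 ± 0.99) and Sox9 (-1.59 ± 0.55). Of 20 sebaceous gland genes tested there, 5 were lower and 0 higher in allogeneic isotype skin.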

How the data were processed

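RNA was sequenced from 21 mouse skin samples in 5 groups, of which 9 form the comparison and 8 give the disease values. The authors deposited raw read counts, one per gene symbol and library. The submitters' processing notes name GRCm39 as the build and featureCounts, STAR, Trimmomatic and FastQC as tools; their versions, their settings and the annotation were not stated in what was used here. Per the labels' protocols, libraries came from poly-A RNA and an unstranded kit, so reads from overlapping or antisense genes cannot be told apart. Of the gene symbols, 99 had at least 100 counts in every nintedanib and water library and 0 in all other 12, and 698 the reverse, so gene names differ between these sets of libraries and levels were tested only within each set.

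The fits used edgeR 4.0.16 under R 4.3.3. Low genes were removed by filterByExpr at a minimum count of 10, libraries scaled by TMM, and the 9 libraries fitted alone with glmQLFit and glmQLFTest, 2-sided, with a Benjamini-Hochberg adjusted p under 0.05 as the call. The SE is the log2 fold change divided by the root of the F statistic. CPM values are TMM-scaled. The allogeneic and syngeneic isotype libraries were fitted in the same way on their own. Counting intervals are exact at 95%. Depth was about even across the 9 libraries, so depth limits mainly the genes with a few reads in one group.

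The members and 43 gene lists (775 genes, 719 tested) were chosen with earlier results of these data known. Lists are described by counts and medians, without a test. The genes named are the 12 with the strongest called increase and the 12 with the strongest called decrease at 1 CPM or more without overlap (predicted genes and clones left out), up to 4 called members of each list described or else its member with the lowest p, 25 genes given whether called or not, of which 24 were tested, and up to 6 of the largest called changes in each direction without nintedanib libraries 1 and 3. Without that pair edgeR called 6 genes higher and 0 lower, so the last rule named genes in the higher direction only.

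Alternatives were RLE factors, no filter, DESeq2 1.42.0, all 21 libraries in one fit, a replicate block, the lane note, hair or muscle content as a covariate, and single libraries left out. DESeq2 without nintedanib libraries 1 and 3 and a fit without nintedanib libraries 2 and 4 were added after the data were seen. The fits were tested on simulated counts. Within the nintedanib group and within the water group no library was a duplicate of another: replicate pairs differed by a chi-square per gene of 65.2 or more. Pairs across groups and the other libraries were not compared in this way. Promoter windows and exon overlaps came from RefSeq and GENCODE on the older build GRCm38. Plots were made in Python 3.11.15 with matplotlib 3.10.9.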

Additional observations from a re-analysis of the deposited data

Results flagged for a closer look

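Among 178 groups of values (89 named genes in both groups), 23 had 1 library far from the others of its group. The limit used flags about 1 in 20 groups of normally distributed values. It was applied to CPM without a log, and a group with reads in 1 library alone is always flagged. The number of flags therefore cannot be set against that rate. Nintedanib library 5 was the highest by far for Far2 (316 CPM, against 53.8 to 93.7 CPM in the other nintedanib libraries), Aadacl4 (31.1 CPM), Aadacl2fm2 (25.5 CPM), Panx3 (23.7 CPM), Ces4a (36.3 CPM), Awat1 (25.7 CPM), Cyp2j12 (7.93 CPM) and Krt16 (215 CPM). Separate groups were a condition for choosing these 8 genes, so their groups were also separate without that library's value.

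Nintedanib library 1 stood apart for Fgf5 (37.8 CPM), a growth factor of the hair cycle, for the melanocyte factor Mitf (72.7 CPM) and for the red cell transporter Slc4a1 (17.1 CPM). Nintedanib library 2, with the highest summed adipocyte level, stood apart for the fat hormone Adipoq (955 CPM) and for the VEGF receptors Flt1 (67.7 CPM) and Kdr (55.5 CPM). Nintedanib library 4 was high for Fn1 (1850 CPM) and Ltf (0.660 CPM).

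In the water group, library 3 was far above the others for the neutrophil granule gene Ltf (80.0 CPM, against 0.469 to 2.52 CPM) and library 4 for the histidine decarboxylase gene Hdc (33.4 CPM). The remaining flags came from genes with reads in 1 water library alone: library 1 for AAdacl4fm3 (0.0629 CPM), Aadacl4 (0.189 CPM), Hsd3b6 (0.126 CPM) and Aadacl2fm2 (0.315 CPM), and library 3 for Cyp2j12 (0.0579 CPM).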

How the results depend on the processing

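The direction of the 94 called genes held under every alternative in which they could be tested, while the number of calls did not. Most alternatives refit the same 9 libraries or part of them, and in all 94 genes the groups did not overlap. A kept direction was therefore all but fixed in advance and is no separate support. Calls numbered 94 (62 higher, 32 lower) with all 9 libraries. Without nintedanib libraries 1 and 3 there were 6 (6 higher, 0 lower) by edgeR and 1147 (558 and 589) by DESeq2. With no filter there were 49 (36 and 13), with DESeq2 1455 (779 and 676), and with all 21 libraries in one fit 1906 (1137 and 769). The lane note as a covariate gave 29 (24 and 5), and libraries with or without the note gave 0 each (0 higher, 0 lower). The muscle list as a covariate gave 155 (97 and 58), the hair list 99 higher, and leaving out nintedanib libraries 2 and 4 gave 96 higher. RLE factors gave 93 calls, 92 of them among the 94. Leaving out each library in turn gave 3 to 139 calls, 3 to 83 higher and 0 to 56 lower. Of the gene lists' members, 14 were called, and 2 without nintedanib libraries 1 and 3. Replicate numbers did not pair the groups (same-number correlations of -0.0727, -0.217, 0.00428 and -0.175). A replicate block gave 33 calls (14 higher, 19 lower), 14 of them among the 94. The cause of these shifts was not tested. Counts of the disease comparison stayed within 1.5 times. Genes with a few reads in the water group are limited by depth, and their ratios have wide intervals.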

Other observations

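Red blood cell genes had a median log2 fold change of 2.60 with nintedanib and 3.17 without libraries 1 and 3, with 0 of 6 called by edgeR, 3 higher at an unadjusted p under 0.05 and 3 higher by DESeq2. Their summed level was 62.9, 505, 55.2, 2360 and 70.7 CPM with nintedanib and 244, 74.7, 99.7 and 48.0 CPM with water, so 1 nintedanib library held most of it. Neutrophil genes summed to 14.3 to 39.6 CPM with nintedanib and to 56.8 to 176 CPM with water, without overlap, although edgeR called 0 of 6 tested (4 lower unadjusted, 3 lower by DESeq2). The dendritic cell receptor Cd209a did not pass, at 9.33 ± 5.30 CPM with nintedanib and 1.92 ± 0.742 CPM with water (2.28 ± 0.52, adjusted p = 0.0786).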
